A study of Mus musculus with 75 samples.

Results

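The comparison described here is the effect of a C26 tumour on the gastrocnemius, the large calf muscle, in mice that received no chemotherapy. Its members were taken by title: 15 libraries of mice given C26 cells and saline, and 15 of mice given PBS (phosphate-buffered saline) and saline, 30 of the 75 samples in the series. Both sexes were pooled with sex as a block. The C26 groups held 7 female and 8 male libraries, and the PBS groups also held 7 female and 8 male libraries.

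RNA sequencing was done on whole muscle of Balb/c mice whose age is not given in the sources used here. C26 mice were injected on both sides with 1 M cells of C26, a mouse colon carcinoma line, and PBS mice were injected with PBS alone. All 30 mice received saline, the vehicle of the chemotherapy arms, from day 12, and the muscle was collected at day 25. The labels name no genotype or transgene in any group. One further female library was left out because its title names saline and its treatment label names a drug.

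C26 tumours are a standard model of cancer cachexia, the loss of muscle and fat in tumour hosts. IL-6 family cytokines signal through the shared receptor gp130 to the kinase JAK and the transcription factor STAT3, which turns on acute-phase genes. In wasting muscle, FoxO transcription factors and glucocorticoids are known to raise the muscle ubiquitin ligases atrogin-1 (Fbxo32) and MuRF1 (Trim63), which mark proteins for the proteasome, together with genes of autophagy.

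Values are deposited log2 expression, on which 1 unit is a doubling, and changes are C26 minus PBS over both sexes, and ± gives their standard error from limma. Levels are not corrected for transcript length, so they are compared between libraries and not between genes. Libraries held between 11.4 M and 40.5 M estimated counts (median 22.4 M), which sets the precision of low genes. Depth, the share of expression from mitochondrial DNA and the slope of expression on GC content did not pass permutation tests of a difference between C26 and PBS within sex (adjusted p = 0.805, 0.75 and 0.805 over the 3). Female C26 replicate 7 stood apart in GC slope (0.498) and mitochondrial share (1.73%). The labels number the replicates and say no more of how they were kept apart, so each p value reflects spread among these libraries, which may in part be technical.

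Of 13856 genes, 2438 rose (17.6%) and 2296 fell (16.6%) at an adjusted p under 0.05 (limma, Benjamini-Hochberg), or 34.2% in all. Every count of list members below is to be read against these shares. At an unadjusted p under 0.05 there were 6006 (43.3%). Most changes were small, since the called genes had a median absolute log2 change of 0.46, and 417 rose (3.01%) and 309 fell (2.23%) by more than 1. The median over all genes was -0.006. In 66 genes every C26 library lay above every PBS library (0.476%), and in 18 every C26 library lay below (0.13%), which makes 0.606% without overlap. Without the 6 libraries with a GC slope over 0.1, which include female C26 replicate 7, 5238 genes were called, of which 4170 were among the 4734.

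**Figure D1:**
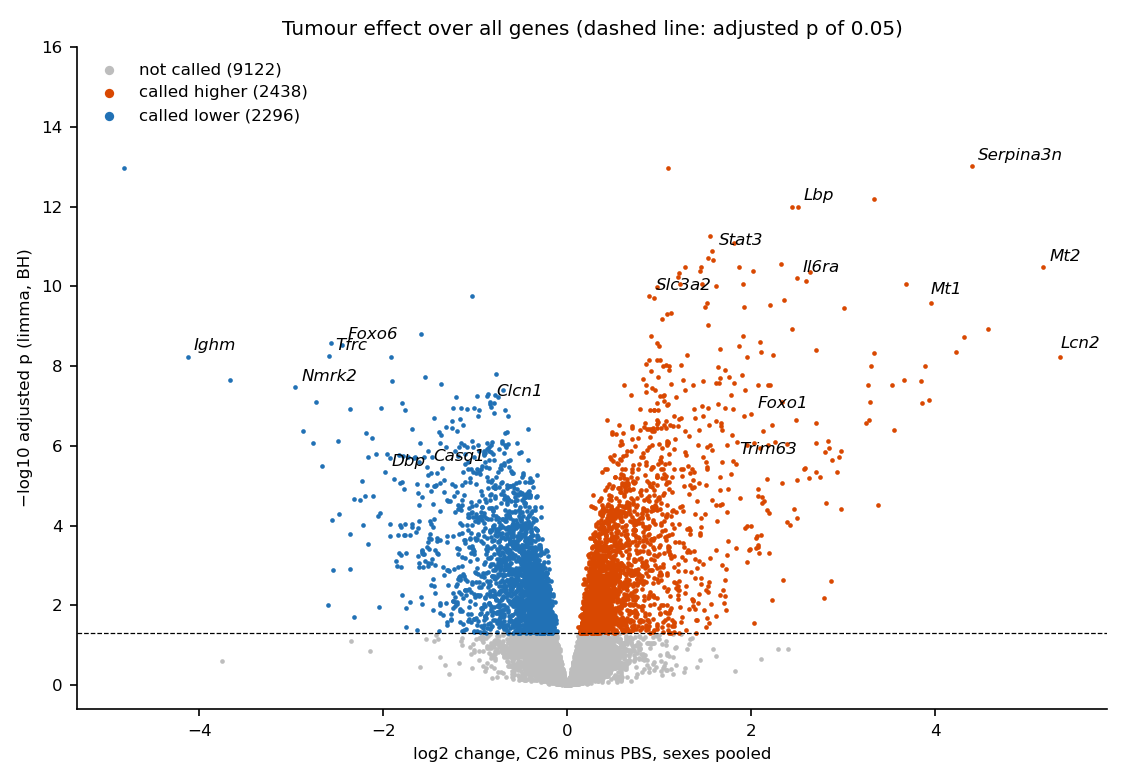
Log2 change (C26 minus PBS, sexes pooled) against the −log10 adjusted p from limma, 1 point per gene, with genes called higher in orange, lower in blue and not called in grey. Called genes number 2438 on the right and 2296 on the left, with Lcn2 and Mt2 at the right edge and Ighm far to the left.

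The 45 pathway lists were written with earlier results of these data known, so a rank among them is a description. Among them, acute-phase and STAT3 target genes had the largest share of rises and the highest median. Of 25 measured members 21 rose, 0 fell, and their median change was 2.02, against 17.6% rising and a median of -0.006 over all genes. Of the 25, 9 had a mean level below 0. Serpina3n (ENSMUSG00000021091), a serine protease inhibitor of the acute phase, lay between 0.52 and 2.57 in PBS (median 1.56) and between 4.41 and 7.51 in C26 (median 6.23). The groups did not overlap, and the rise of 4.40 ± 0.25 (adjusted p = 9.87e-14) was 21.1-fold. Lcn2 (ENSMUSG00000026822), lipocalin-2, which withholds iron from bacteria by binding their siderophores, spanned -1.93 to 2.28 in PBS (median -0.50) and 1.13 to 8.74 in C26 (median 5.56). Only female C26 replicates 4 and 5 were within the PBS range, and it rose by 5.36 ± 0.54 (adjusted p = 5.86e-09), the largest rise of any gene whose mean level was 1 or more. Lbp, which carries bacterial lipopolysaccharide to its receptor, rose by 2.50 ± 0.16 with no overlap, and haptoglobin (Hp), which binds free haemoglobin, rose by 2.70 ± 0.36 with overlap. Bcl3, a nuclear partner of NF-kB, rose by 2.02 ± 0.16, and the IL-4 receptor chain Il4ra by 1.44 ± 0.11, both with no overlap. The other 4 members, Orm1, Cp, Cebpb and Serpina3g, named for completeness, did not pass.

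The IL-6 family's own signalling genes were divided. Of 20 measured members 5 rose, and another 5 fell (median -0.04). Il6ra (ENSMUSG00000027947), the IL-6 binding chain, lay between 2.18 and 3.62 in PBS (median 3.06) and between 4.16 and 6.44 in C26 (median 5.56), and rose by 2.49 ± 0.20 (adjusted p = 6.25e-11). Every C26 library exceeded every PBS library. Osmr, the oncostatin M receptor, rose by 1.61 ± 0.13, also with no overlap, and Il6st, which encodes gp130, by 0.60 ± 0.08. Stat3 (ENSMUSG00000004040) spanned 5.79 to 6.41 in PBS (median 5.93) and 6.58 to 8.08 in C26 (median 7.68). It rose by 1.58 ± 0.12 (adjusted p = 1.34e-11), a 2.99-fold change with no overlap. Socs3, the feedback inhibitor of this pathway, was the most variable of these genes, from 0.61 to 3.60 in PBS (median 1.5) and from 2.21 to 7.74 in C26 (median 4.80). Its rise was 2.88 ± 0.41, and its ranges overlapped. The 5 that fell included the ligand Lif (-1.51 ± 0.35) and the receptors Cntfr (-0.72) and Lifr (-0.37), which were chosen for naming after their values were seen. The ligands Il6, Il11 and Osm were not analysed here.

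STAT proteins bind the letters TTCNNNGAA, which read the same way on both strands. The stretch from 250 bases before each gene's start to the start was searched in the RefSeq promoters (GRCm38.p6). The table held 10418 of the tested genes, and 7.24% of these had a match. The acute-phase list was drawn up to include STAT3 targets, so its share of matches is no independent support. Among 19 acute-phase members with a promoter 6 matched (31.6%), and among the 16 of them that rose 5 matched. These 5 are shown because they are the acute-phase genes that rose and carry the letters, and Socs3 as the pathway's inhibitor, with the match in capitals and its first base counted back from the start.
Steap4, chr5:7960344-7960376 (+), 116 bases before: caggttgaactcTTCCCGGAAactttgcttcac
Tnfrsf1a, chr6:125349473-125349499 (+), 244 bases before: gcttccTTCCGTGAAattgacaacagg
Icam1, chr9:21015886-21015918 (+), 42 bases before: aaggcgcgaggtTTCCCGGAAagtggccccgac
Serpina3i, chr12:104263008-104263040 (+), 102 bases before: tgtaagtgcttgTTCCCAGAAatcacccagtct
Itih4, chr14:30886413-30886445 (+), 51 bases before: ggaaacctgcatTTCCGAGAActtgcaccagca
Socs3, chr11:117969500-117969532 (-), 154 bases before: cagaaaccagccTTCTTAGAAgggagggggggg
A match is a description of the letters and says nothing of binding. Steap4, a metalloreductase, Tnfrsf1a, a TNF receptor, Icam1, an adhesion molecule, and Serpina3i and Itih4, protease inhibitor relatives, rose by 0.87 ± 0.12, 0.89 ± 0.09, 1.06 ± 0.12, 2.81 ± 0.47 and 2.70 ± 0.33, and were chosen for naming by the match, after their values were seen. Over all called genes the letters stood in 7.99% of 1864 promoters of genes that rose and in 6.39% of promoters of genes that fell.

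Metallothioneins are small proteins that bind zinc and copper. Mt2 and Mt1 had the largest rises within the list of metallothionein, zinc and iron genes. Mt2 (ENSMUSG00000031762) lay between 1.27 and 4.9958 in PBS (median 2.57) and between 4.9996 and 9.56 in C26 (median 8.18), so the groups touched without overlapping. Its rise was 5.18 ± 0.40 (36.2-fold, adjusted p = 3.34e-11). Mt1 spanned 3.41 to 5.87 in PBS (median 4.25) and 5.41 to 9.70 in C26 (median 8.25), and rose by 3.95 ± 0.34. Slc39a14, a zinc and iron importer, rose by 1.71 ± 0.20. Tfrc (ENSMUSG00000022797), the transferrin receptor through which cells take up iron, moved the other way, from 5.09 to 7.19 in PBS (median 6.13) to 2.14 to 5.16 in C26 (median 3.78). It fell by 2.59 (SE 0.26, adjusted p = 5.73e-09), with all 15 C26 libraries below the PBS mean of their sex. The list as a whole did not lean to one side, with 6 of 24 rising, 6 falling and a median of 0.04.

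The core of the metal response element is TGCNCNC. It was found on either strand in 57.2% of the tested genes' promoters, so 1 match is common. In the 250 bases searched before the listed starts, the Mt2 promoter held 5 matches and the Mt1 promoter 1. Matches beyond that stretch were not counted, so these numbers do not compare the whole promoters of the 2 genes. The matches found are shown because these genes had the largest rises of the list.
Mt2, chr8:94172383-94172586 (+): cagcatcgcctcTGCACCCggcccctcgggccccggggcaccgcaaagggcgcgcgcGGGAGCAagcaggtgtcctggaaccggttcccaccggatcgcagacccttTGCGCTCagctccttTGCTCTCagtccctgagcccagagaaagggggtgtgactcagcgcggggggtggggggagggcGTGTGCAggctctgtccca
Mt1, chr8:94179054-94179084 (+): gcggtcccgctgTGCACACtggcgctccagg
Capitals mark the matches, of which the 2 that begin with G lie on the reverse strand.

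Complement, the plasma protein cascade that tags cells and microbes, rose as a group, with 15 of 21 measured members higher, 0 lower and a median of 0.98. C4b rose by 2.64 ± 0.21 with no overlap, C3 by 1.86 ± 0.18, factor B (Cfb) by 1.64 ± 0.17 and the C1 inhibitor Serping1 by 1.04 ± 0.12. Of 24 chemokines and receptors 11 rose and 4 fell. Of the 24, 11 had a mean level below 0, and such genes may have been kept only through libraries where they were high. Cxcl13, which attracts B cells, rose by 4.31 ± 0.41 from a very low level and Ccl6 by 2.36 ± 0.20, both with no overlap. Ackr1, a chemokine receptor of venules, rose by 1.92 ± 0.17. In the NF-kB, TNF and IL-1 list 12 of 26 rose, among them the adaptor Myd88 (0.92 ± 0.12) and the receptors Il1r1 (1.10 ± 0.13) and Tnfrsf1b (0.91 ± 0.10). The 4 that fell included Tnfaip3, the NF-kB feedback inhibitor A20, at -1.25 ± 0.16 with all 15 C26 libraries below the PBS mean of their sex. Interferon response genes were near the shares over all genes (17.6% higher and 16.6% lower), with 5 of 41 higher and 8 lower, and 6 each way without the 6 libraries of high GC slope. Those that fell included Gbp3 (-1.62 ± 0.26) and Ifi44 (-1.17 ± 0.29), while the exonuclease Isg20 rose by 0.85 ± 0.19.

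Markers of blood cells moved with these inflammatory genes. All 8 measured of 14 neutrophil markers rose, with a median of 3.42, and their summed expression on the linear scale (2 to the power of the deposited value, here called units) was 1.45 to 12.6 units in PBS and 6.17 to 38.5 in C26. Of these 8, 6 had a mean level below 0. The authors' rule for removing low genes is not given, so such markers may have been kept only through libraries where they were high. The count of 8 of 8 is therefore no independent support. S100a8, a neutrophil calprotectin subunit, spanned -5.10 to -0.02 in PBS (median -2.88) and -1.54 to 2.37 in C26 (median 1.76), rose by 3.86 ± 0.45 and was at 0 estimated counts in 1 library. Retnlg and Mmp8, other neutrophil genes, rose by 3.84 ± 0.41 and 3.94 ± 0.45 and were each at 0 in 6 of the 30 libraries. The defining neutrophil genes Ly6g, Elane and Mpo were not analysed here. Of 19 macrophage markers 16 rose (median 1.10), among them Lyve1 (1.78 ± 0.20), Fcgr3 (1.31 ± 0.13), C1qc (1.18 ± 0.13) and the monocyte gene Ly6c2 (0.98 ± 0.08), and their sum went from 82.0 to 157.9 units in PBS to 123.5 to 310.8 in C26. The shared receptor chains of myeloid cytokines rose with no overlap, Csf2rb by 2.33 ± 0.18 and Csf2rb2 by 2.44 ± 0.16. The part of these cells in the acute-phase, complement and chemokine rises was not tested, and in whole muscle more cells of a type and more RNA per cell cannot be told apart.

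Among B cell, plasma cell and MHC class II genes the change lay mainly in Ighm. Ighm, the heavy chain of IgM, spanned 3.04 to 6.84 in PBS (median 5.42) and -0.65 to 3.91 in C26 (median 0.74), and fell by 4.13 (SE 0.41, adjusted p = 5.79e-09), a 17.5-fold change and the largest fall of any gene whose mean level was 1 or more. Its C26 and PBS libraries did not overlap within either sex. Cd79b (-1.27 ± 0.43) and Cd74 (-0.38 ± 0.14) also fell, to make 3 of 8 measured, and 0 rose. Without the 6 libraries of high GC slope 1 of 8 fell, as Cd79b and Cd74 no longer passed (limma adjusted p = 0.0874 and 0.154). Cd79a and Ms4a1, and all 11 T and NK cell markers, were not analysed here. Erythroid markers rose in 4 of 6, led by the anion exchanger Slc4a1 (2.00 ± 0.37) and the haem synthesis enzyme Alas2 (1.04 ± 0.24), and their summed expression was 239.4 to 4729 units in PBS and 457.3 to 2013 in C26.

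**Figure D2:**
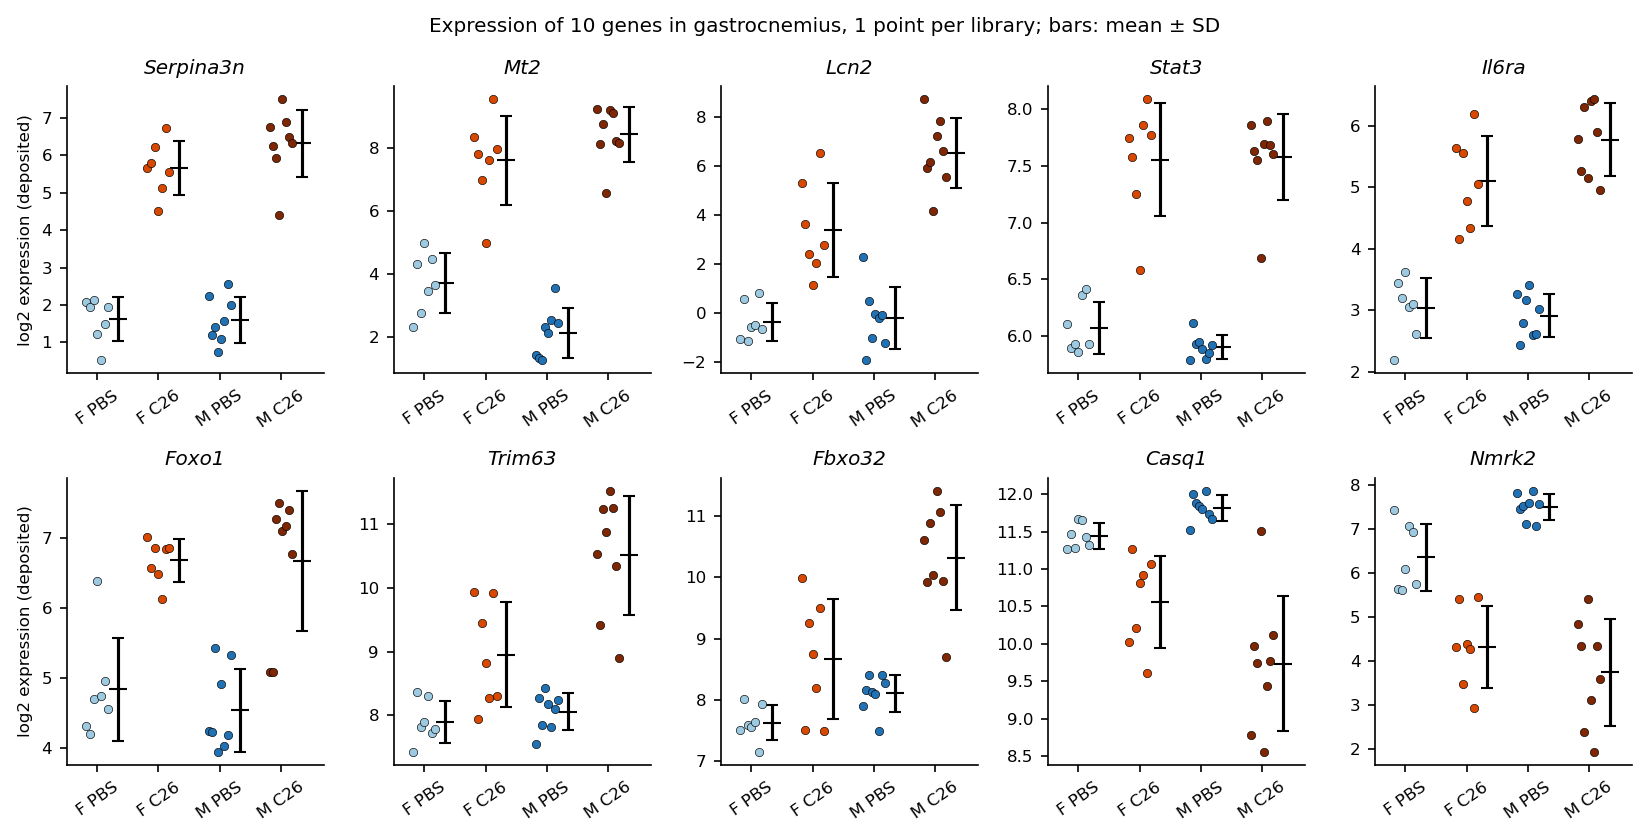
Deposited log2 expression of 10 genes, 1 point per library, in female (F) and male (M) PBS and C26 groups, with the mean and SD of each group beside its points. Serpina3n, Mt2, Stat3 and Il6ra show no overlap between PBS and C26, Foxo1, Trim63 and Fbxo32 overlap in some libraries, and Nmrk2 is lower in every C26 library.

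Of the muscle wasting genes, Trim63 (ENSMUSG00000028834) lay between 7.43 and 8.43 in PBS (median 7.89) and between 7.95 and 11.53 in C26 (median 9.92). It rose by 1.80 ± 0.25 (3.48-fold, adjusted p = 2.35e-06), and all 15 C26 libraries exceeded the PBS mean of their sex. Fbxo32 (ENSMUSG00000022358) spanned 7.15 to 8.41 in PBS (median 7.94) and 7.49 to 11.42 in C26 (median 9.93), rose by 1.67 ± 0.25 (3.17-fold, adjusted p = 6.04e-06), and was higher in 13 of 15. For both ligases the same 3 C26 libraries, female replicates 2, 5 and 7, stayed within the PBS range. Fbxo31, a further F-box ligase subunit, rose by 1.04 ± 0.15, and Nedd4l by 0.85 ± 0.10. Ligases did not move together, since 9 of 26 listed genes rose and 8 fell, among them Trim55, or MuRF2, a relative of Trim63, at -0.65 ± 0.08 with all 15 C26 libraries below the PBS mean of their sex.

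Targets of FoxO and the glucocorticoid receptor leaned up, with 16 of 30 higher, 2 lower and a median of 0.47. Foxo1 (ENSMUSG00000044167) lay between 3.95 and 6.39 in PBS (median 4.55) and between 5.08 and 7.5 in C26 (median 6.86), and rose by 2.00 ± 0.24 (adjusted p = 1.62e-07). Only 3 C26 libraries (female replicate 5 and male replicates 1 and 2) lay under the top PBS value of 6.39, which was that of female replicate 4. Foxo3 rose by 1.07 ± 0.11 while Foxo6, another member of the family, fell by 2.45 (SE 0.24). Fkbp5, a glucocorticoid-induced cochaperone of the steroid receptors, spanned 3.42 to 6.45 in PBS (median 5.59) and 6.75 to 8.84 in C26 (median 8.13). It rose by 2.60 ± 0.21 with no overlap. Eif4ebp1, which holds back cap-dependent translation and is a FoxO and ATF4 target, rose by 1.92 ± 0.23. Pdk4, which blocks pyruvate entry into the mitochondria, rose by 1.44 ± 0.28. The glucocorticoid receptor gene Nr3c1 (0.21 ± 0.17) and its targets Klf9 (-0.00) and Per1 (-0.10) did not pass, and were chosen for naming after their values were seen.

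FoxO factors bind GTAAACA, found in 2.70% of tested promoters on either strand. The letters stood in 2.74% of promoters of genes that rose and in 2.39% of promoters of genes that fell. Of FoxO and glucocorticoid receptor targets that rose, 1 of 13 promoters held them, and of listed ligases that rose, 1 of 5. Trim63 held 1 match, shown because Trim63 was the ligase with the larger rise, on the reverse strand and 194 bases before its start.
Trim63, chr4:134314914-134314944 (+): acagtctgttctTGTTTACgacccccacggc

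Proteasome subunits rose broadly and by little, and autophagy genes in part. Of 35 proteasome subunits 25 rose, 0 fell and the median change was 0.29. Psma7, a core particle subunit, rose by 0.67 ± 0.11, the regulatory subunits Psmd2 and Psmc2 by 0.60 ± 0.10 and 0.53 ± 0.09, and Psmb1 by 0.43 ± 0.07. Autophagy genes rose in 13 of 33 and fell in 3. The autophagosome proteins led these, with Map1lc3b at 1.05 ± 0.12, Gabarapl1 at 1.02 ± 0.15 and Gabarap at 0.51 ± 0.07. The receptor Optn rose by 0.48 ± 0.09. Lysosomal genes rose in 17 of 33 and fell in 2, among them the hydrolases Hexa (0.56 ± 0.07) and Ctsd (0.64 ± 0.11) and the membrane proteins Laptm5 (0.77 ± 0.11) and Cd63 (0.59 ± 0.09), of which Laptm5 is also known from leukocytes.

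Genes of protein synthesis rose as well. Of 79 cytosolic ribosomal proteins 55 rose and 0 fell, with a median of 0.35, which was 0.39 in females and 0.29 in males. Rpl3 (0.94 ± 0.11) had no overlap, and smaller rises were seen in Rpl13a (0.39 ± 0.07), Rpl24 (0.39 ± 0.07) and Rpl22 (0.37 ± 0.06). The count was 69 without the 6 libraries of high GC slope, while the direction was the same. Ribosomal proteins have many near-identical pseudogene copies, so their counts are uncertain. Ribosome biogenesis genes rose in 16 of 40 and fell in 1, led by the transcription factor Myc (1.25 ± 0.13) and followed by Ddx21 (0.48 ± 0.11) and Nop14 (0.46 ± 0.08). Amino acid transporters rose in 9 of 22 and fell in 1. Slc3a2, the shared heavy chain of several exchangers, lay between 4.53 and 5.23 in PBS (median 4.93) and between 5.26 and 6.06 in C26 (median 5.80). It rose by 0.89 ± 0.08 (adjusted p = 1.75e-10) with no overlap. Slc7a2 (1.14 ± 0.21), Slc43a1 (0.96 ± 0.16) and Slc7a7 (0.86 ± 0.14) rose with it.

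Among ATF4 targets of the integrated stress response 8 of 26 rose and 3 fell, with Chac1, a glutathione-degrading enzyme, at 1.62 ± 0.20 and asparagine synthetase (Asns) at 1.06 ± 0.16. Endoplasmic reticulum chaperones and unfolded protein response genes rose in 8 of 25 and fell in 1, by small amounts such as Xbp1 (0.44 ± 0.11), Calr (0.33 ± 0.06) and Creld2 (0.58 ± 0.13). Antioxidant genes rose in 14 of 29 and fell in 2. The secreted glutathione peroxidase Gpx3 rose by 1.5 ± 0.13 with no overlap, the extracellular superoxide dismutase Sod3 by 0.99 ± 0.13 and thioredoxin (Txn1) by 0.63 ± 0.09. Cytosolic heat shock genes did not stand out from the shares over all genes (17.6% and 16.6%), with 4 of 32 higher, such as Hsp90ab1 (0.47 ± 0.09), and 5 lower, such as Dnajb1 (-1.12 ± 0.22).

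Of the growth control lists, the insulin and p53 lists were close to the shares over all genes (17.6% higher and 16.6% lower). Single members are given for their own values. In the insulin, IGF and mTOR list 8 of 35 rose and 5 fell, with Igfbp4 (0.98 ± 0.10) and Mtor itself (0.61 ± 0.08) higher and Grb14, an inhibitor of the insulin receptor, lower (-1.11 ± 0.17). Igf1 (0.02) and Insr (0.18), named after their values were seen, did not pass. Myostatin (Mstn), the muscle's own growth inhibitor, spanned 4.38 to 6.28 in PBS (median 5.37) and 4.81 to 6.63 in C26 (median 5.39). Its change was 0.10 ± 0.18 (adjusted p = 0.695), within the spread of either group. Gdf11, its close relative, fell by 1.34 (SE 0.21). In the whole myostatin, activin and TGF-beta list 9 of 36 rose and 10 fell, both above the shares over all genes. The receptor Tgfbr2 rose by 0.62 ± 0.09, and the ligand Tgfb2 (-0.65 ± 0.11) and the receptor Acvr1 (-0.44 ± 0.08) fell. The p53 and cell cycle arrest list, also near those shares, held 6 rises and 3 falls among 29 genes. Cdkn1a, the cyclin-dependent kinase inhibitor p21, led these at 1.74 ± 0.28, followed by Gadd45a (0.93 ± 0.13), the death receptor Fas (0.86 ± 0.13) and Btg1 (0.65 ± 0.09).

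**Figure D3:**
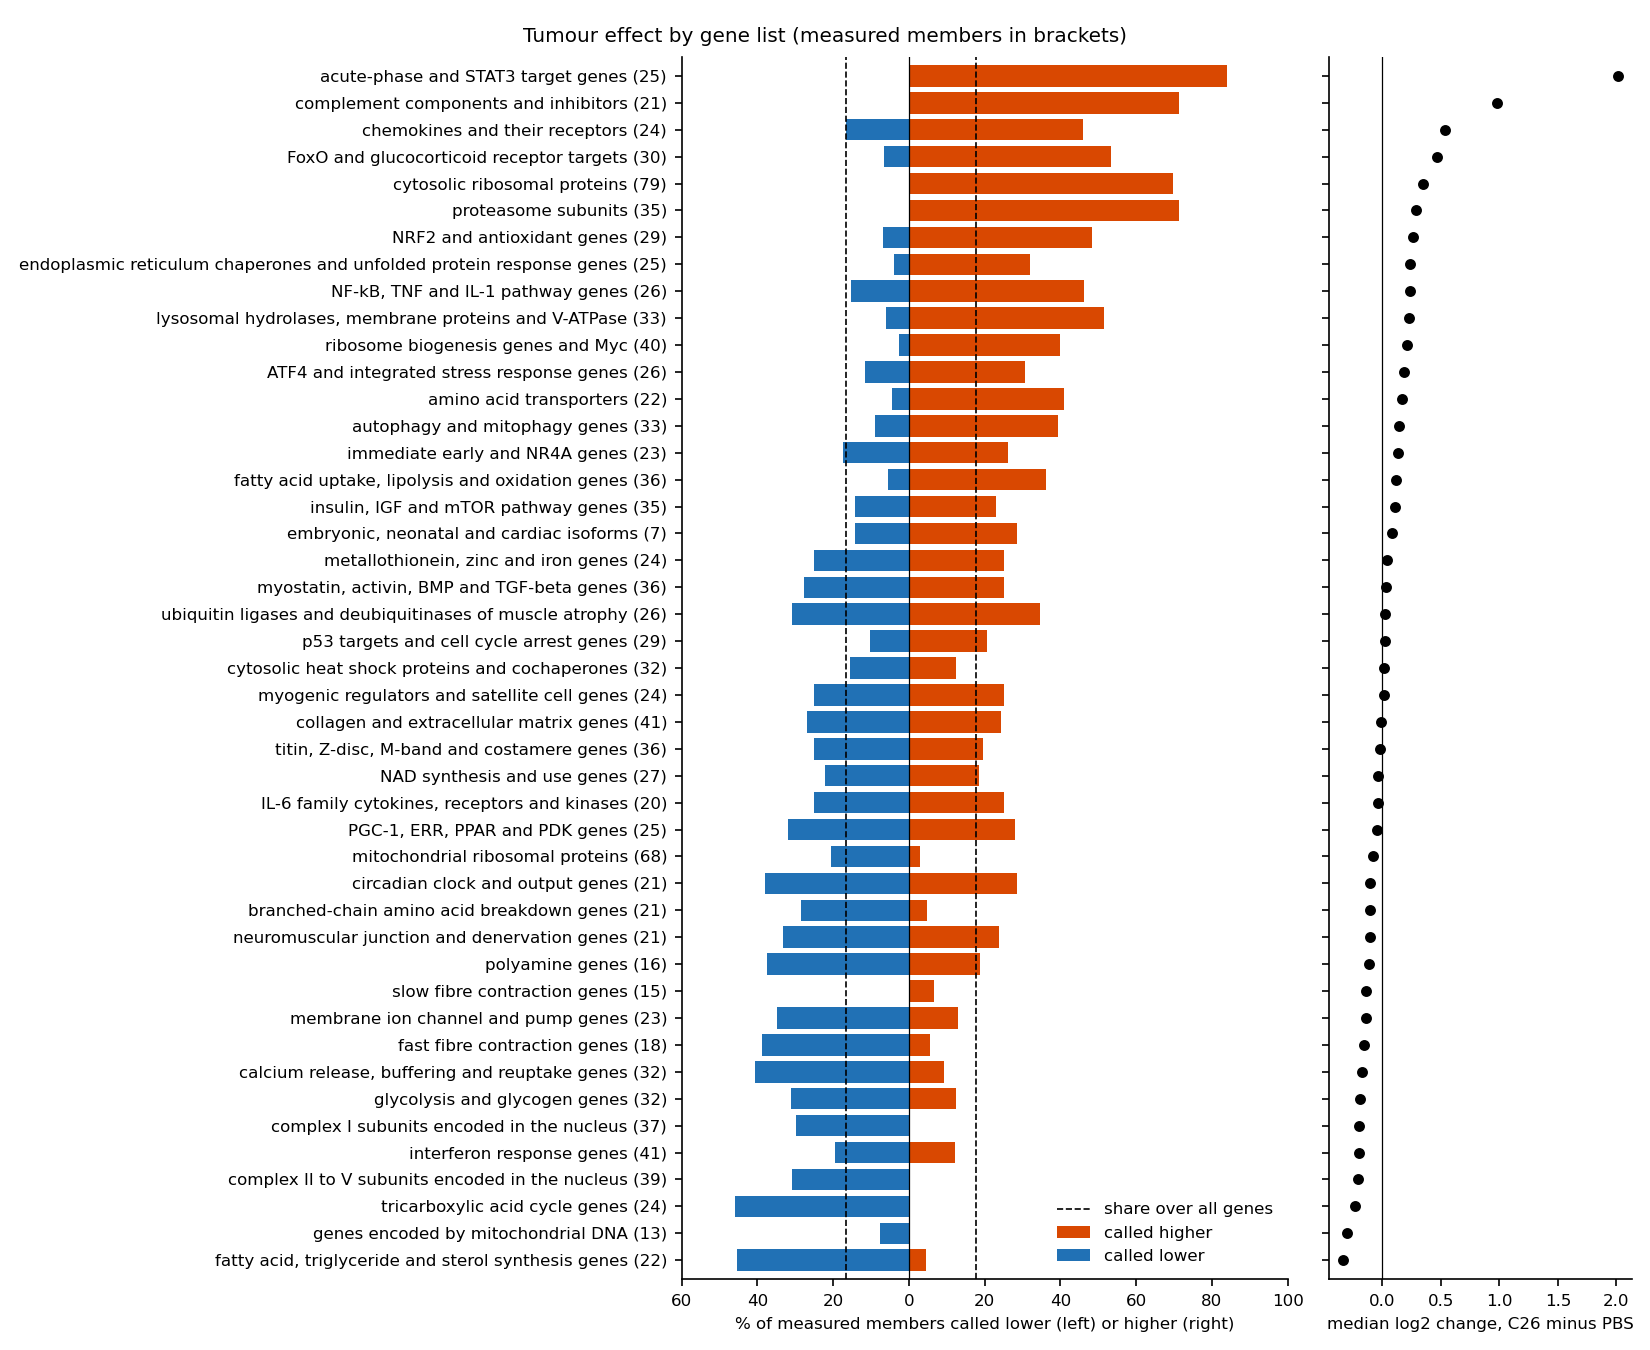
Left, the percentage of measured members called higher (orange, right) or lower (blue, left) in each of 45 pathway lists, with the shares over all genes dashed (17.6% higher and 16.6% lower), ordered by the median log2 change of the members, on the right. Acute-phase, complement, proteasome and ribosomal protein lists lie far beyond the dashed line on the higher side, and tricarboxylic acid cycle and lipid synthesis lists on the lower side.

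The contractile apparatus changed in selected genes more than throughout. Fast fibre genes fell in 7 of 18 and rose in 1 (median -0.15, which was -0.05 in females and -0.26 in males). Casq1 (ENSMUSG00000007122), calsequestrin-1, the calcium store protein of the fast sarcoplasmic reticulum, lay between 11.27 and 12.05 in PBS (median 11.66) and between 8.56 and 11.51 in C26 (median 10.03). It fell by 1.52 (SE 0.22, 2.87-fold, adjusted p = 3.43e-06), and all 15 C26 libraries were below the PBS mean of their sex. The fast light chain Myl1 fell by 1.02 (SE 0.15) and the calcium buffer parvalbumin (Pvalb) by 1.00 (SE 0.18). The main fast myosin Myh4 ranged from 14.90 to 16.17 in PBS (median 15.67) and from 14.14 to 16.12 in C26 (median 15.36), and its change of -0.43 ± 0.18 did not pass (adjusted p = 0.065). Myh1 (-0.07) and Myh2 (-0.19), named after their values were seen, also did not pass. Slow fibre genes were nearly all uncalled, with 1 of 15 higher, Sln (1.08 ± 0.29), an inhibitor of the calcium pump, and 0 lower. Mylk2, the kinase of the fast light chain, rose by 0.73 ± 0.16.

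Among Z-disc, M-band and titin-linked genes 7 of 36 rose and 9 fell, against 17.6% and 16.6% over all genes. The share that rose was near that over all genes, and single members are given for their own values. Myoz3, which ties calcineurin to the fast Z-disc, fell by 1.53 (SE 0.24), Lmod3, which nucleates thin filaments, by 0.70 (SE 0.08) and Synpo2l by 0.77 (SE 0.12), while Pdlim5 rose by 0.81 ± 0.15. Cardiac actin (Actc1), an isoform of immature muscle, fell by 2.03 (SE 0.36), whereas Ankrd1, a stretch-response gene, rose by 1.35 ± 0.39. The 10 general muscle markers showed 1 fall, Mylpf (-0.61 ± 0.15), and 0 rises, so the libraries were muscle by their markers in both groups.

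Genes of excitation and calcium release fell more often than they rose. Calcium handling genes fell in 13 of 32 and rose in 3, among them junctophilin-2 (Jph2, -0.91 ± 0.17) and Asph (-0.57 ± 0.09). Of 23 membrane channels and pumps 8 fell and 3 rose. Clcn1, the chloride channel that sets the resting membrane of muscle, lay between 7.81 and 8.20 in PBS (median 7.98) and between 6.38 and 7.76 in C26 (median 7.09). The fall was 1.80-fold (-0.84 ± 0.10, adjusted p = 7.89e-08) and the groups did not overlap. The potassium channel Kcnc1 fell by 0.62 (SE 0.13). Neuromuscular junction and denervation genes were divided, with 5 of 21 higher and 7 lower, against 17.6% and 16.6% over all genes. Runx1, which rises in denervated muscle, rose by 1.47 ± 0.17 and Gadd45a by 0.93 ± 0.13, while Lrp4, the agrin receptor, fell by 0.72 (SE 0.11) and Hdac9 by 1.14 (SE 0.19). Of 24 myogenic regulators 6 rose and 6 fell, against the same shares over all genes. Myf6 (0.97 ± 0.12) and the cadherin Cdh15 (0.69 ± 0.11) were among those that rose. Myogenin (Myog) did not pass, with a change of 0.76 ± 0.42, and Myod1 fell by 1.34 (SE 0.33), both named after their values were seen.

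Nuclear genes of the respiratory chain and the tricarboxylic acid cycle fell by small amounts and none of them rose. Complex I subunits fell in 11 of 37 (median -0.20), subunits of the other complexes in 12 of 39 (median -0.21) and tricarboxylic acid cycle genes in 11 of 24 (median -0.23). Examples were Ndufs1 (-0.52 ± 0.11), Atp5pd (-0.40 ± 0.10), the isocitrate dehydrogenase subunit Idh3a (-0.59 ± 0.09) and the pyruvate dehydrogenase component Dlat (-0.56 ± 0.10). The 3 medians were -0.05, -0.08 and -0.16 in females and -0.31, -0.32 and -0.29 in males. The difference between sexes passed in 0 members of each list. With the GC slope of each library as a covariate the 3 counts were 21, 25 and 15, and without the 6 libraries of high slope they were 8, 8 and 10, with 1 rise in each list in that fit and 1 in complex I under the covariate. Of 13 genes encoded by mitochondrial DNA only mt-Nd4l fell (-0.53 ± 0.20) and 0 rose, and without those 6 libraries 8 fell. Mitochondrial ribosomal proteins fell in 14 of 68 and rose in 2, with a median of -0.08 and Mrpl19 at -0.53 ± 0.09. The share of them that fell was near the 16.6% over all genes, and 52 were not called. In the PGC-1 and PDK list 7 of 25 rose and 8 fell, with the uncoupling protein Ucp2 higher (1.28 ± 0.18), and the pyruvate dehydrogenase phosphatase Pdp1 (-1.15 ± 0.18) and the mitochondrial deacetylase Sirt3 (-0.66 ± 0.15) lower.

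Fuel genes were divided by pathway. Glycolysis and glycogen genes fell in 10 of 32 and rose in 4, with phosphoglucomutase (Pgm1) at -0.86 ± 0.18 and pyruvate kinase (Pkm) at -0.65 ± 0.14 against Hk1 at 0.46 ± 0.09 and Ppp1r3c, which targets a phosphatase to glycogen, at 0.81 ± 0.14. Fatty acid uptake, lipolysis and oxidation genes rose in 13 of 36 and fell in 2. The acyl-CoA thioesterases Acot1 and Acot2 rose by 2.18 ± 0.29 and 1.25 ± 0.22, and the hormone-sensitive lipase Lipe by 0.65 ± 0.11. Genes of fatty acid, triglyceride and sterol synthesis fell in 10 of 22 and rose in 1, with the lowest median of all pathway lists at -0.34. Scd1, the desaturase that makes oleate, spanned 4.22 to 7.97 in PBS (median 6.04) and 1.29 to 6.80 in C26 (median 4.10). Scd1 fell by 1.76 (SE 0.34), with overlap, and Gpam (-0.66 ± 0.14), Hmgcs1 (-0.46 ± 0.09) and Insig1 (-0.48 ± 0.11) fell too. Lpin1, which makes diacylglycerol and also acts in the nucleus, rose by 1.03 ± 0.09. Branched-chain amino acid breakdown genes fell in 6 of 21 and rose in 1, with the phosphatase Ppm1k at -0.52 ± 0.16 and Dbt at -0.38 ± 0.11.

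One of the largest falls was in NAD metabolism. Nmrk2 (ENSMUSG00000004939), the muscle kinase that turns nicotinamide riboside into an NAD precursor, lay between 5.63 and 7.88 in PBS (median 7.12) and between 1.94 and 5.46 in C26 (median 4.32). It fell by 2.96 (SE 0.33, 7.77-fold, adjusted p = 3.41e-08) with no overlap. The list was divided, with 5 of 27 higher, led by Bst1 (1.66 ± 0.28), and 6 lower, near the shares over all genes (17.6% and 16.6%). Polyamine genes fell in 6 of 16 and rose in 3, with Amd1, the S-adenosylmethionine decarboxylase, at -1.61 ± 0.27, spermine oxidase (Smox) at -1.16 ± 0.21 and Mat2a at -0.51 ± 0.09. Clock genes fell in 8 of 21 and rose in 6. Dbp, a clock output factor, spanned 5.49 to 7.39 in PBS (median 6.52) and 1.46 to 6.81 in C26 (median 4.71), and fell by 1.98 (SE 0.29) in 14 of 15. Its relative Hlf fell by 1.14 (SE 0.14) and the repressor Bhlhe41 by 1.13 (SE 0.17). The time of day of collection is not given in the sources used here. Immediate early genes, which respond within minutes, rose in 6 of 23 and fell in 4, with Junb at 2.06 ± 0.40 and Nr4a3 at 1.31 ± 0.28 against Dusp1 at -0.73 ± 0.17. The median of this list was -0.47 in females and 0.54 in males, so its pooled median of 0.14 describes neither sex. Without the 6 libraries of high GC slope 4 rose and 2 fell.

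Matrix genes and the other cell types of muscle showed mixed changes. Of 41 matrix genes 10 rose and 11 fell. The protease inhibitor Timp1 rose by 2.26 ± 0.30, the collagen crosslinker Lox by 2.03 ± 0.27 and elastin (Eln) by 1.08 ± 0.13, while Col15a1 fell by 0.79 (SE 0.12) and Col1a1 by 0.70 (SE 0.26). Endothelial markers rose in 9 of 18 and fell in 3. The venule genes Selp (2.23 ± 0.28) and Ackr1 rose, and so did the junction gene Cldn5 (0.78 ± 0.11), while the capillary factor Bcl6b fell by 1.76 (SE 0.21). Of 13 fibroblast markers 3 rose, among them Ly6a (1.45 ± 0.11, no overlap) and Pi16 (0.75 ± 0.13), and only Col1a1 fell. Smooth muscle and pericyte markers showed 1 rise and 1 fall among 9 and Schwann cell markers 1 rise among 10. Adipocyte markers rose in 2 of 10, and leptin (Lep) fell by 2.36 (SE 0.55). The tendon genes Tnmd (-1.71 ± 0.50) and Kera (-2.05 ± 0.63) fell among 7, with summed tendon expression from 71.3 to 623.0 units in PBS and from 42.7 to 767.1 in C26. Chad and Cilp2, cartilage and tendon matrix genes, fell by 2.60 (SE 0.78) and 2.55 (SE 0.60). How far dissection moved with these was not tested. Of 12 epithelial markers, 4 were analysed and summed to 7.01 to 15.6 units in PBS and 9.89 to 21.4 in C26.

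Of the 4734 called genes 4708 (99.5%) had the same sign in females and males. They were called by an effect averaged over both sexes, which favours genes of equal sign. That share is therefore no test of whether the sexes share a direction. Within sexes 683 genes rose (4.93%) and 429 fell (3.1%) in females, and 2081 rose (15.0%) and 1991 fell (14.4%) in males, or 8.03% of genes in females and 29.4% in males. Among the 4734 genes 912 were called in each sex, 2721 in males alone, 170 in females alone and 931 in neither sex alone. These counts do not compare the sexes, and the difference itself passed in 10 genes (0.0722%), of which 3 had a higher (0.0217%) and 7 a lower (0.0505%) effect in males, or in 1273 (9.19%) at an unadjusted p under 0.05. That count rested on single libraries: it was 69 without male C26 replicate 4, 30 without male replicate 8, 27 without female C26 replicate 6, 18 without male replicate 2 and 6 without female replicate 2. The falls in females were 248 without female C26 replicate 6. Many named genes had larger estimates in males, such as Lcn2 (3.77 in females, 6.75 in males), Trim63 (1.05 and 2.45) and Casq1 (-0.88 and -2.08), and none of these 3 differences passed (adjusted p = 0.318, 0.323 and 0.323). Fkbp5 (2.47 and 2.71), Lbp (2.38 and 2.62) and Selp (2.23 and 2.23) had nearly equal estimates.

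**Figure D4:**
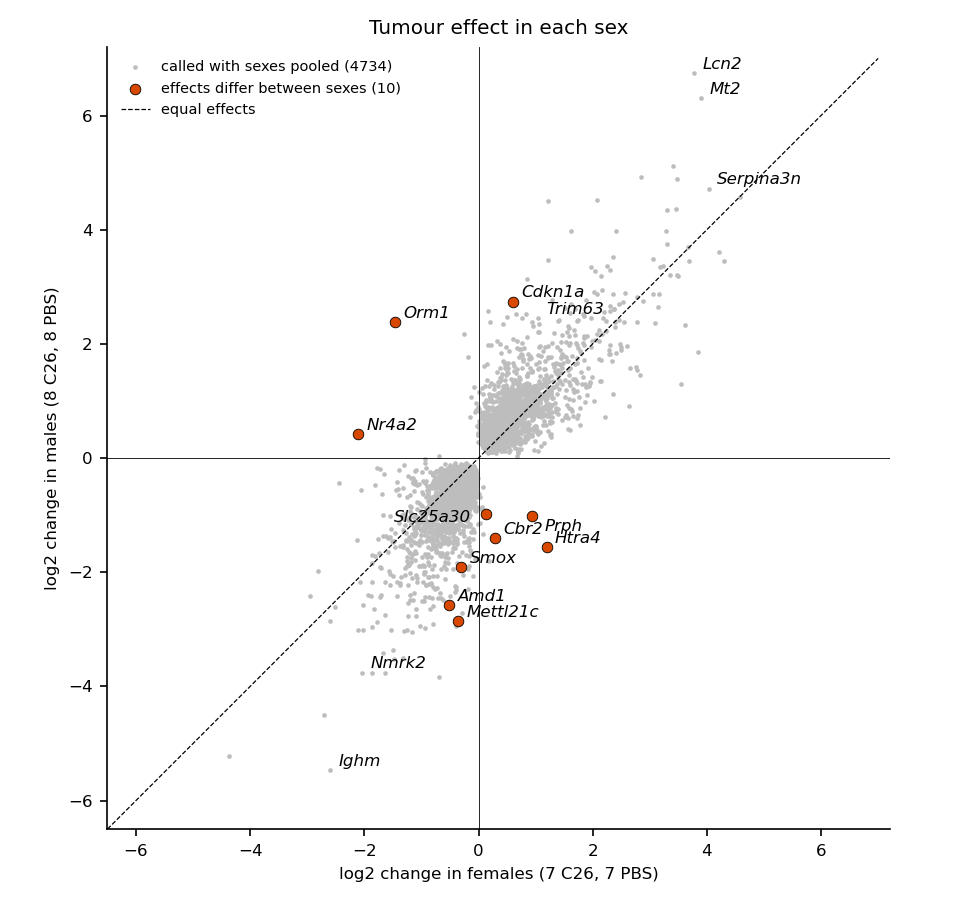
Log2 change in females against log2 change in males for the 4734 genes called with sexes pooled (grey) and the 10 genes whose effect differed between sexes (orange), with the line of equal effects dashed. Of the grey points 4708 of 4734 have the same sign on both axes, which their selection by the pooled effect favours. Cdkn1a, Amd1, Smox and Mettl21c lie well off the line with a larger change in males.

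For the genes that differed between sexes, group means show where the difference lay. Cdkn1a averaged 5.41 ± 0.48 (SD, n = 7) in female PBS and 6.02 ± 0.57 in female C26, and 4.02 ± 0.41 (SD, n = 8) in male PBS and 6.76 ± 0.83 in male C26. The tumour effect was 0.60 in females and 2.74 in males (adjusted p of the difference = 0.0227), and the PBS groups already differed. Amd1 stood at 7.07 ± 0.54 in female PBS, 6.56 ± 0.42 in female C26, 10.06 ± 0.39 in male PBS and 7.49 ± 0.88 in male C26. Smox followed the same pattern, at 6.53 ± 0.47, 6.22 ± 0.44, 8.22 ± 0.22 and 6.31 ± 0.64. For both genes the male PBS group was the one set apart, and the other 3 group means lay within 1 unit of each other. Mettl21c, a muscle protein methyltransferase, fell in males from 5.80 ± 0.39 to 2.95 ± 1.09 and was at 4.51 ± 0.22 and 4.16 ± 0.46 in female PBS and C26. Slc25a30, Cbr2, Htra4 and Prph had male minus female differences of -1.10, -1.70, -2.76 and -1.95. The last 2 of the 10, named after their values were seen, were Orm1 (-1.45 in females and 2.38 in males) and Nr4a2 (-2.11 and 0.42).

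Spread was somewhat larger among C26 than among PBS libraries for most genes. This is a description, since genes vary together and no test over libraries was made. Over the 10718 genes whose mean level was 1 or more the SD within sex was larger in C26 than in PBS for 68.2%, with a median SD of 0.29 in C26 and 0.25 in PBS. The share was 62.8% in females and 62.5% in males. The C26 set includes female replicate 7, which stood apart in GC slope, and its part in the spread was not tested. Fbxo32 differed more than the median gene, with an SD within sex of 0.92 over the 15 C26 libraries and 0.30 over the 15 PBS libraries.

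Across the 15 C26 libraries, after the mean of each sex was taken off, Fbxo32 followed Trim63 closely (r = 0.925, rho = 0.95, permutation p = 1e-05 for each, the smallest that 100000 permutations can give, 6e-05 after adjustment over 6 relations). Within sexes r was 0.96 in 7 females and 0.91 in 8 males, and it was 0.933 without the 2 libraries farthest out. Casq1 was lower where Fbxo32 was higher (r = -0.67, permutation p = 0.00856, adjusted 0.0257; rho = -0.821, p = 0.00068, adjusted 0.00204), with r = -0.907 in females and -0.55 in males and -0.787 without the 2 libraries farthest out. Fbxo32 showed weaker relations to the inflammatory genes, with r = 0.508 for Lcn2, 0.352 for Serpina3n and 0.315 for Mt2, and r = 0.167 for Foxo1. None of these 4 passed (permutation p = 0.0703, 0.207, 0.298 and 0.551, adjusted 0.141, 0.31, 0.357 and 0.551). For these 4, rho was 0.532, 0.475, 0.475 and 0.346 (adjusted permutation p = 0.112, 0.112, 0.112 and 0.17). Male C26 replicate 4 illustrates the looseness, with Fbxo32 at 10.04 but the lowest Serpina3n of all C26 libraries and Casq1 at 11.51, which with female replicate 2 was within the PBS range. The GC slope of a library had r = -0.304 with Fbxo32 over these libraries, and its part in the relations was not tested.

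**Figure D5:**
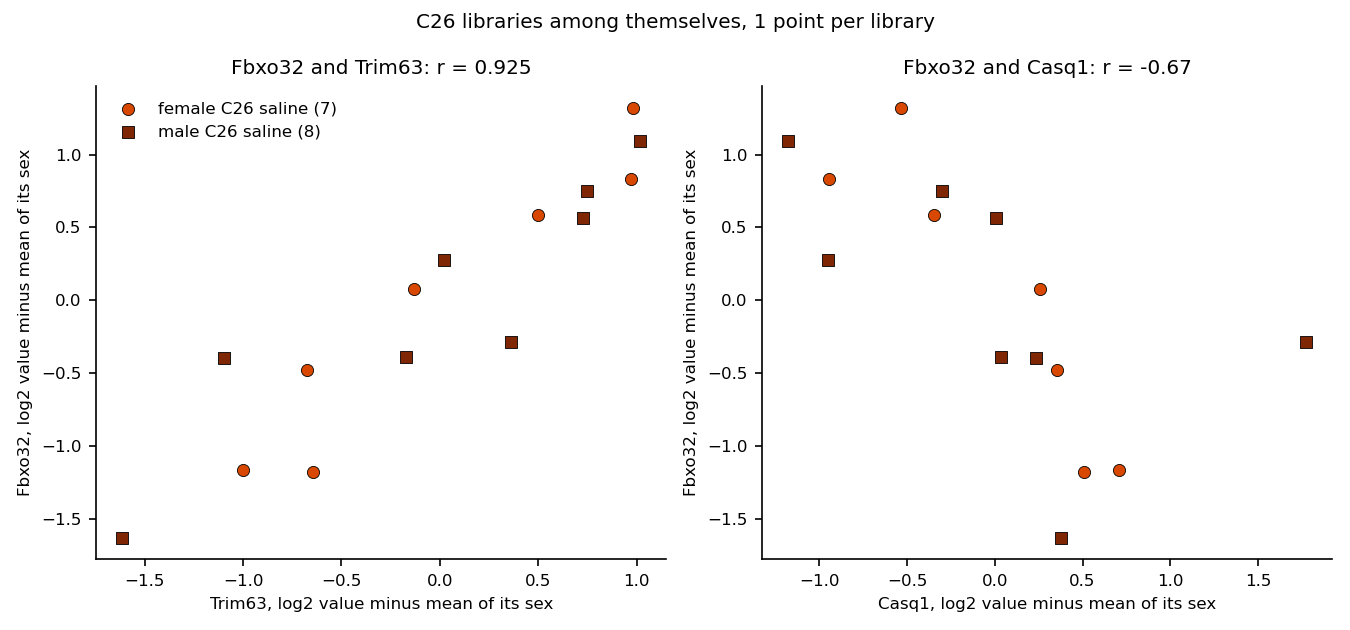
Fbxo32 against Trim63 (left) and Casq1 (right) in the 15 C26 libraries, as log2 values minus the mean of the sex, with females as circles and males as squares. The points rise together with Trim63 (r = 0.925) and run downward with Casq1 (r = -0.67), where 1 male library sits far to the right.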

How the data were processed

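RNA of the gastrocnemius was isolated by TRIzol followed by a spin column, and Illumina libraries were read from both ends, per the labels' protocols. In all, the authors deposited 1 table, with log2 expression of 13856 genes in 74 libraries. Per the submitters' processing notes, which give neither version nor role, the authors used Salmon, fastp, limma, edgeR, MultiQC and FastQC with the build GRCm39 (mm39). How they scaled libraries and removed low genes is not given in the sources used here. The values have the form of log2 of an estimated count plus 0.5 over a scaled library size, from which depths were computed, and 87.0 to 91.4% of the values so recovered lay within 0.02 of a whole number. Female PBS replicate 8 was not analysed here, and 1 column whose labels conflict was in no comparison.

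The 30 libraries were fitted with limma 3.58.1 (R 4.3.3, lmFit and eBayes with trend) with terms for sex and tumour. Effects within sexes and their difference came from the 4 group means. P values were adjusted by Benjamini-Hochberg over all genes, with a threshold of 0.05. The code was tested on simulated data. Permutation tests used 100000 permutations (scipy 1.17.1). The closest pair of libraries, male PBS replicates 2 and 4, had a mean chi-square per gene of 14.9, so no library was a copy. The same batch is labelled for every library.

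Members and gene lists were chosen with earlier results of these data known. Named genes were the 15 largest rises and falls with a mean of at least 1 and a symbol, up to 4 called genes of smallest p per list, 15 fixed genes, and the 5 of smallest p for the difference between sexes. Symbols and GC content were taken from GENCODE M21 (13791 identifiers, 99.5%), and promoters from RefSeq (GRCm38.p6), not from the authors' build. Promoters were searched on both strands for STAT, FoxO, metal response element, glucocorticoid receptor, E-box (CACGTG) and NF-kB letters, and the last 3 are not described further. Alternatives were quantile normalization, median centring, log2 of the value plus 1, a floor on the mean, all groups at once, quality weights, a replicate block, GC slope or mitochondrial share as a covariate, and leaving out libraries. A few genes that the naming rule selects are not reported here.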

Additional observations from a re-analysis of the deposited data

Results flagged for a closer look

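In 7 of 72 gene or measure and group combinations searched, 1 library lay far from the rest of its group by Dixon's test, which chance does in about 1 of 20. In female PBS these were Foxo1 at 6.39 in replicate 4 and Cdkn1a at 4.432 in replicate 1. In male PBS it was Socs3, at 3.603 in replicate 7. Male C26 replicate 4 was low in both Stat3 (6.687) and Mt2 (6.596), and male C26 replicate 7 had the highest mitochondrial share (17.712%). Female C26 replicate 7 had a GC slope of 0.498.

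The tumour effect differed between the sexes, by the limma test of the difference over all genes, in 8 named genes. The male minus female difference was -1.096 for Slc25a30, -2.759 for Htra4, -2.495 for Mettl21c, -1.699 for Cbr2, -1.951 for Prph, -2.066 for Amd1 and -1.613 for Smox. It was 2.137 for Cdkn1a.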

How the results depend on the processing

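Calls with the sexes pooled numbered 3950 to 6281 under the planned settings and 4343 to 5139 with 1 library left out, against 4734, and all 4734 were kept when GC slope entered the model. Calls in the direction of a rise were 48.0% with quantile normalization, against 51.5%. Of 217 called named genes 210 kept the call in all 40 settings. The other 7, among them Col1a1, Cd74, mt-Nd4l, Hba-a1, Cbr2 and Cd79b, lost it in some, and none reversed. The labels give replicate numbers no shared source, and same-numbered libraries deviated together in some pairs only (10 of 15 correlations over 0.1, median 0.238, range -0.516 to 0.409), so the numbers were not taken to pair them, and a replicate block gave 4580 calls, 4402 of them among the 4734, and 9 for the difference between sexes.

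The difference between sexes depended on the setting. Calls higher and lower in males were 8 and 14 when GC slope entered as a covariate, 30 and 45 under quality weights and 1 and 1 without the 6 libraries of high GC slope, against 3 and 7. Lower calls were 3 with all groups at once and 12 on log2 of the value plus 1. With 1 library left out they ranged from 1 to 18 higher (without female C26 replicate 2 and male C26 replicate 8) and from 5 to 52 lower (without female C26 replicate 2 and male C26 replicate 4). In females alone, rises and falls were 1076 and 876 with the GC covariate, 1068 and 830 with quality weights, 377 and 180 without the libraries of high slope, and 467 to 807 and 248 to 533 with 1 library left out. The cause was not tested, beyond the fewer libraries in the last 2. Depth limits the low genes, since 6 of 8 neutrophil markers had a mean below 0.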

Other observations

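Outside the lists, genes whose C26 and PBS libraries did not overlap included several of blood vessels, named after their values were seen. Plvap, a protein of fenestrated endothelium, rose by 1.53 ± 0.11, and Ly6c1, which endothelial cells carry, by 1.10 ± 0.06. The secreted glycoprotein Lrg1 rose by 1.87 ± 0.14. Apln, the vascular ligand apelin, fell by 2.88 (SE 0.37), and Prnd, a prion protein relative, by 4.82 (SE 0.28) from a low level. 3 interferon-induced membrane proteins rose, Ifitm1 by 1.92 ± 0.18, Ifitm2 by 0.86 ± 0.09 and Ifitm3 by 0.94 ± 0.12, as did the kinase Jak3 (1.23 ± 0.10) and the matrix protease Mmp3 (3.27 ± 0.36).

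Some muscle genes fell without overlap too. Ky, a muscle protease-like protein, fell by 1.66 (SE 0.23), Nes, the intermediate filament nestin, by 1.04 (SE 0.09), Crhr2, a receptor of the urocortins, by 1.03 (SE 0.14), Wnt5a by 1.37 (SE 0.15) and the DNA methyltransferase Dnmt3a by 0.68 (SE 0.08).

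The female library with conflicting labels had log2 values of 4.62 for Serpina3n, 5.64 for Mt2, 1.05 for Lcn2, 7.35 for Stat3, 7.77 for Fbxo32, 7.46 for Trim63, 11.00 for Casq1 and 5.06 for Nmrk2.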
